A study of Mus musculus with 16 samples.

Results

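The 10 genes described here are grouped with the lytic, inflammatory forms of cell death. They include the inflammasome sensors Nlrp3 and Aim2, the adaptor Pycard and the inflammatory caspase group of Casp1, Casp4 and Casp12. The others are the pore protein gene Gsdmd and the necroptosis genes Zbp1, Ripk3 and Mlkl. All 10 were chosen by function, with earlier results of these data known, as the rows of the count table whose Ensembl identifiers carry these symbols. Each of the 10 matched 1 row of the 52636 genes. In this series RNA was sequenced from islets of 12-week-old male C57BL/6JRj mice, as the labels give the strain (C57BL/6NRj in the study's methods). The 4 conditions, with 4 libraries each, were untreated islets (control), islets given 50 pg/mL recombinant mouse IL-1β, islets given 0.2 mM sodium butyrate and islets given these agents together, all over 10 days of culture. Every condition shared the same serum-containing medium and no gene was modified. For each library 500 islets of more than 1 mouse were combined, which makes the experiment, not the animal, the unit of replication, and whole islets hold every islet cell type. Total counts per library ran from 18635943 to 25955943 (median 22184715). Beta cell markers (Ins1, Ins2, Iapp and 5 more) summed to between 137486 and 261918 CPM (counts per 1e6 of the scaled library size) in every library.

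In the inflammasome, a sensor protein that has met a danger signal gathers the adaptor ASC, the product of Pycard, and ASC recruits pro-caspase-1. Active caspase-1 matures the cytokines IL-1β and IL-18 and cuts gasdermin D, whose freed end forms pores in the plasma membrane, the death called pyroptosis. Caspase-4 of the mouse, also called caspase-11, binds bacterial lipopolysaccharide in the cytosol and cuts gasdermin D directly. In necroptosis the kinase RIPK3, activated through RIPK1 or the nucleic acid sensor ZBP1, phosphorylates MLKL, which then permeabilizes the membrane. NF-κB and interferons are known to raise transcription of several of these genes, a step called priming. Transcript levels say nothing of whether the proteins were active.

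Casp1, Casp4 and Casp12 lie side by side on the plus strand of chromosome 9 (GRCm38, GENCODE M21), Casp1 at chr9:5298517-5307265, Casp4 at chr9:5308828-5336783 and Casp12 at chr9:5345430-5373032, and no other annotated gene lies between them. All 3 are protein-coding. The other 7 genes, also protein-coding, lie on 7 further chromosomes. The 250 bases before the RefSeq start (GRCm38.p6) are shown for the 3 neighbouring caspase genes, which differed in their response, and for Pycard, which moved with butyrate and not detectably with IL-1β. Capitals mark matches to an NF-κB consensus site (Casp4) or to the STAT site TTCNNNGAA (Casp12).
Casp1, plus strand, chr9:5298267-5298516: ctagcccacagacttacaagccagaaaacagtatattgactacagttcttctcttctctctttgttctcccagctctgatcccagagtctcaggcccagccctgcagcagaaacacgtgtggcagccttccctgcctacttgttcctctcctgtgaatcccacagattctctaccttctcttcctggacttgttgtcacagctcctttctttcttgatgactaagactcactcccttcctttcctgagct
Casp4, plus strand, chr9:5308599-5308848: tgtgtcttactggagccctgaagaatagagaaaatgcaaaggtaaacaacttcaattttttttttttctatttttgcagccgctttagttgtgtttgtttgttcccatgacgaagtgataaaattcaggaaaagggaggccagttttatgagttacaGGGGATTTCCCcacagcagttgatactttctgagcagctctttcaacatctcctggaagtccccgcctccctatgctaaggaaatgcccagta
Casp12, plus strand, chr9:5345226-5345475: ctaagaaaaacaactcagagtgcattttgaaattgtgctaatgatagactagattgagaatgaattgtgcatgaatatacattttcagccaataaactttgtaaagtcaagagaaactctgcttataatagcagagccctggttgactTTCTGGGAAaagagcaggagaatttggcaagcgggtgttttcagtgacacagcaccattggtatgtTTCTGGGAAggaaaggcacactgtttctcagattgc
Pycard, minus strand, chr7:127993868-127994117: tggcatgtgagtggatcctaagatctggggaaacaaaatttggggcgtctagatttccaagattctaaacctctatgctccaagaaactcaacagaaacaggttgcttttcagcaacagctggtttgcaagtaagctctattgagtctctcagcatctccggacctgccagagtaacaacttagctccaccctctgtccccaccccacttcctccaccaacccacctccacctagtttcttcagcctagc

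Motifs were searched on both strands in windows from 250 bases before to 50 bases after the start, of which the table holds 32851, with 10 windows for 8 of the 10 genes. The capitals before Casp4 hold 2 overlapping NF-κB matches, the first beginning 93 bases before the start, and 4.51% of all windows hold such a match. Nlrp3 had 1 match, on the minus strand 186 bases before the start of 1 of its 2 windows. The motif TTCNNNGAA, present in 8.3% of windows, occurred 2 times before Casp12. The interferon motif GAAANNGAA, present in 8.56% of windows, was found for Ripk3, from 14 bases past its start. None of the 3 motifs was in the windows of Casp1, Pycard, Mlkl or Aim2. These are descriptions of letters in a window, with no reading of which factor binds there.

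The levels of these genes were low in islets. Per kilobase of exon, as FPKM (CPM divided by exon length in kilobases), Gsdmd was the highest of the 10 in control islets at 2.49 ± 0.570 (SD, n = 4). Pycard followed at 0.862 ± 0.102 and Mlkl at 0.726 ± 0.0349 FPKM, and the lowest Pycard library (0.774) lay just above the highest Mlkl library (0.770). Casp1 (0.195 ± 0.141 FPKM), Casp4 (0.141 ± 0.0293) and Zbp1 (0.103 ± 0.0298) had the next highest means and overlapped one another. Aim2 (0.0492 ± 0.0367), Casp12 (0.0469 ± 0.0181), Nlrp3 (0.0328 ± 0.00776) and Ripk3 (0.0195 ± 0.0226) had the lowest means and overlapped in range, and the lowest Casp1 and Zbp1 libraries lay below the highest of Aim2 and Casp12. With IL-1β the order was Gsdmd at 5.54 ± 0.392 FPKM, Mlkl at 1.95 ± 0.162, Casp1 at 1.88 ± 0.122 and Casp4 at 1.31 ± 0.241, ahead of Pycard at 0.929 ± 0.164. Mlkl and Casp1 overlapped there, as did Casp4 and Pycard, while every Casp1 library lay above every Casp4 library in FPKM. The length used was that of all annotated exons together, 1497 bases for Casp1, 3710 for Casp4 and 3800 for Pycard. In CPM every Casp4 library with IL-1β (3.63 to 5.74) lay above every Casp1 library (2.59 to 3.0). Pycard averaged 3.53 CPM there and Casp1 2.81 CPM. The order of these 3 genes therefore depends on the lengths used.

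**Figure D1:**
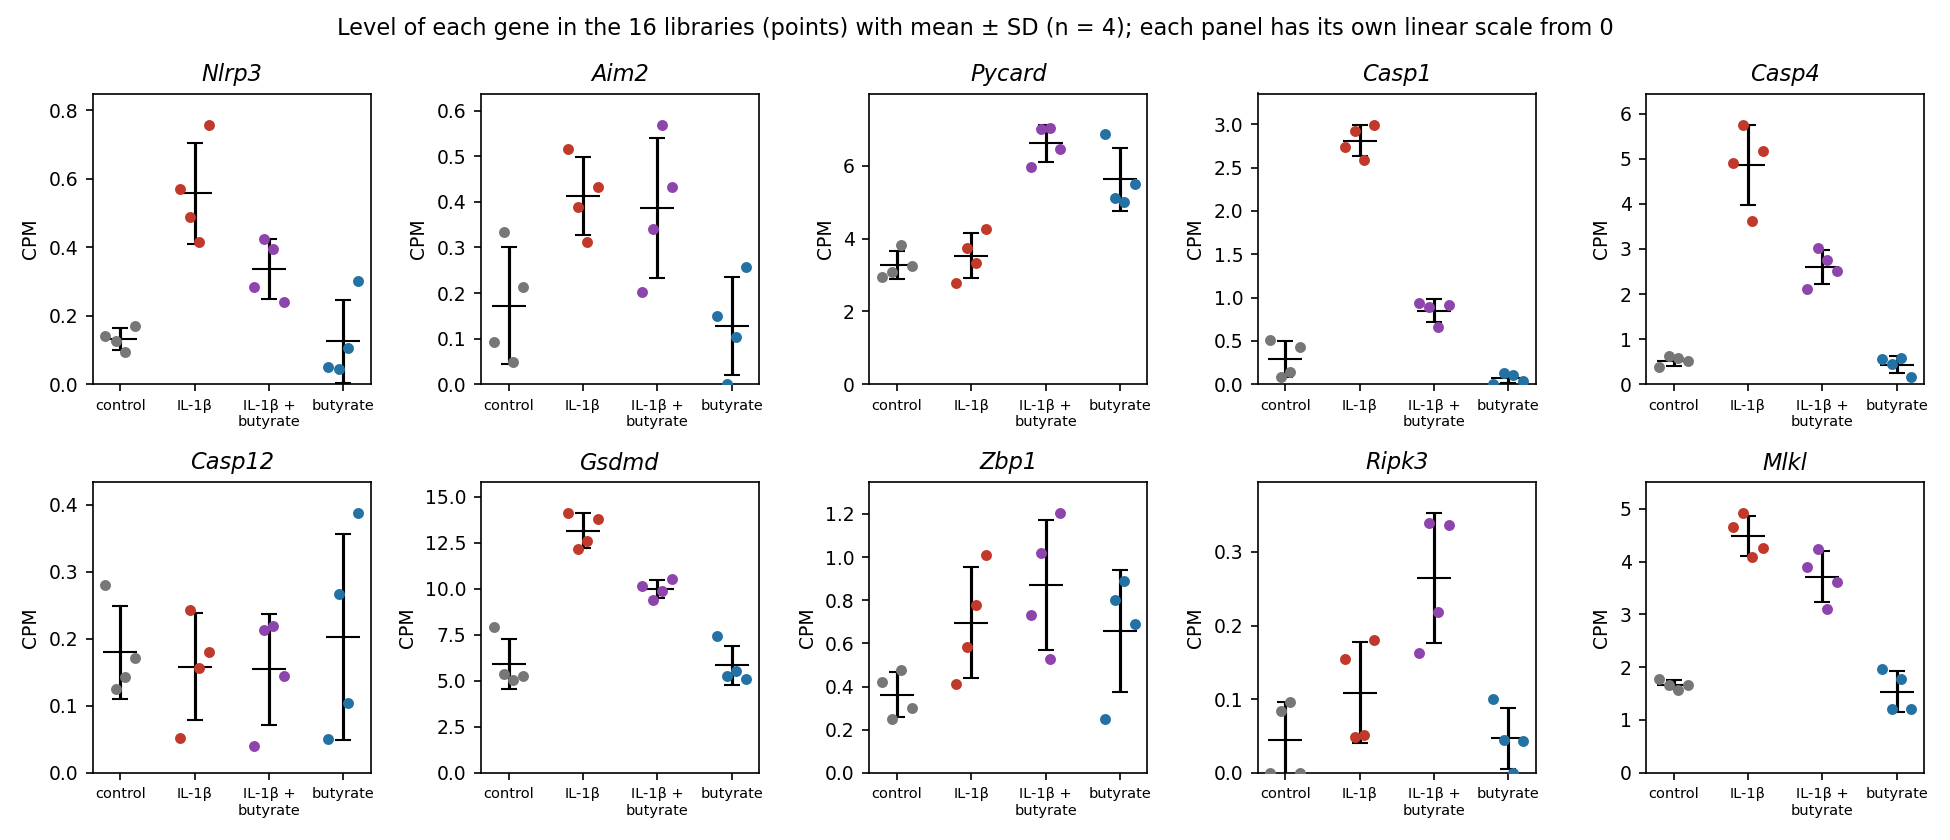
Counts per 1e6 (CPM, vertical axes, each linear from 0) of the 10 genes in the 16 libraries, with the 4 conditions along the horizontal axis. Points are libraries and black bars the mean ± SD (n = 4, cut off at 0). The 4 IL-1β libraries lie above the 4 controls for Casp1, Casp4, Gsdmd, Mlkl and Nlrp3, the Pycard libraries with butyrate lie above those without, and Casp12 shows no separation.

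A gene entered the tested set when enough libraries had about 10 counts, which left 18587 genes, and it was called raised or lowered at a Benjamini-Hochberg adjusted p under 0.01 in edgeR's quasi-likelihood model of the 4 conditions. Of the 10 genes, 7 entered. Casp12, Nlrp3 and Ripk3 did not, with mean counts of 3.88, 6.50 and 2.63 per library, and were tested outside the model. Aim2 entered with a mean count of 6.13, only through libraries given IL-1β, where its level was highest.

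IL-1β against control asks how the cytokine alone moved these genes. Casp1, Casp4, Gsdmd and Mlkl were raised, 4 of the 10, where 11.2% of all genes tested were raised. None was lowered, against 6.59% of all genes tested. At an unadjusted p under 0.05 edgeR had 6 raised and 0 lowered, against 18.7% and 17.2% of all genes tested. DESeq2 called 5 raised and 0 lowered, against 10.7% and 5.29% of the genes it gave an adjusted p, the fifth being Nlrp3.

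Casp1, the protease at the heart of the inflammasome, had 11, 2, 3 and 10 counts in control replicates 1 to 4 and 53, 60, 50 and 83 with IL-1β. In CPM these were 0.513, 0.0834, 0.143 and 0.428 against 2.74, 2.92, 2.59 and 3.0. The conditions did not overlap, and the IL-1β libraries lay much closer to one another than the controls did (coefficient of variation 6.47% against 72.1%). The log2 fold change was 3.26 (SE 0.31, edgeR adjusted p = 3.29e-09), a 9.55-fold rise with a wide counting error on the control side. The ratio of pooled counts was 9.77 with an exact 95% interval of 6.51 to 15.3, which covers counting error only.

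Casp4 rose as steeply from a less variable base. Control libraries had 0.373, 0.625, 0.573 and 0.514 CPM and IL-1β libraries 4.91, 5.74, 3.63 and 5.16. The log2 fold change was 3.21 (SE 0.22, edgeR adjusted p = 8.89e-12), or 9.22-fold. Every IL-1β library was above every control, and replicate 3 was the lowest of the 4 for both caspases. The neighbouring Casp12 did not follow: its counts were 6, 3, 3 and 4 in control and 1, 5, 3 and 5 with IL-1β.

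Gsdmd, the pore-forming target of both caspases, had 7.93, 5.38, 5.06 and 5.26 CPM in control and 14.1, 12.2, 12.6 and 13.8 with IL-1β. The conditions were separate although control replicate 1 stood above the other controls. The log2 fold change was 1.16 (SE 0.12, edgeR adjusted p = 2.11e-08), a 2.23-fold rise, and it was 1.33 without that control library. Mlkl, which executes necroptosis, went from 1.77, 1.67, 1.58 and 1.67 CPM to 4.65, 4.92, 4.09 and 4.26. Its controls were the tightest set of any of the 10 genes (coefficient of variation 4.81%), and the log2 fold change was 1.42 (SE 0.16, edgeR adjusted p = 5.02e-08), 2.67-fold.

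Pycard, Aim2 and Zbp1 were not called with IL-1β. Pycard was at 2.94, 3.09, 3.82 and 3.25 CPM in control and 2.79, 3.75, 3.32 and 4.26 with IL-1β, overlapping sets with a log2 fold change of 0.13 and a 95% interval from -0.16 to 0.42. For the DNA sensor Aim2 the counts were 2, 8, 1 and 5 against 10, 8, 6 and 12, with a log2 fold change of 1.20 (interval 0.14 to 2.25, edgeR adjusted p = 0.0896). Zbp1 had 9, 6, 10 and 7 counts against 8, 12, 15 and 28, a log2 fold change of 0.99 (interval 0.20 to 1.78, edgeR adjusted p = 0.0591). The intervals of Aim2 and Zbp1 reach as far as the changes of Gsdmd and Mlkl, so a rise of that size was not resolved at this depth.

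**Figure D2:**
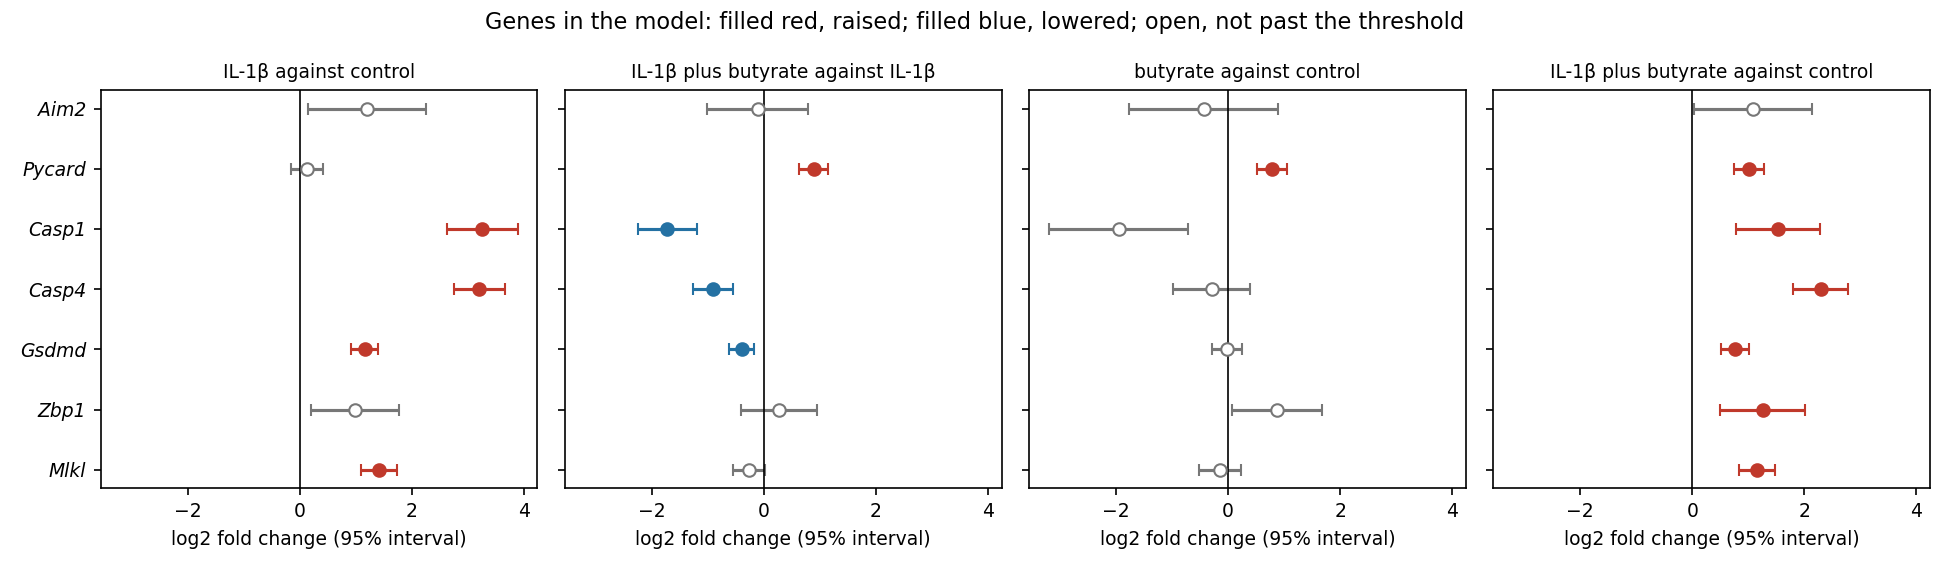
Log2 fold changes (horizontal axes) with 95% intervals for the 7 genes in the model, 1 panel per comparison. Filled points passed an adjusted p of 0.01 (red raised, blue lowered) and open points did not. With IL-1β alone the caspases sit near 3.2, butyrate moves Casp1, Casp4 and Gsdmd to the left and Pycard to the right in islets with IL-1β, and with butyrate alone only Pycard is filled.

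Macrophage markers moved in the same comparison. Of 13 markers listed from general knowledge, with earlier results of these data known, 12 were raised by IL-1β and 1 (C1qa) was lowered. Over all genes tested 11.2% were raised and 6.59% lowered. The 13 had a median log2 fold change of 2.19, against -0.03 over all genes tested. The 13 markers summed to between 136 and 149 CPM in control and between 201 and 258 with IL-1β. C1qa held most of the control sum (99.6 to 124 CPM), and the other 12, among them Adgre1, Csf1r and Lyz2, summed to between 24.9 and 36.5 CPM in control and between 110 and 191 with IL-1β. None of the 13 was at 0 throughout. In a bulk sample, more cells of a type and more RNA per cell cannot be told apart. The part of macrophages in the rise of Casp1, Casp4, Gsdmd and Mlkl was not tested. The T and B lymphocyte markers summed to between 1.96 and 4.91 CPM in any library and the neutrophil markers to between 0.414 and 0.975 CPM, with Ly6g at 0 counts in every library. Of the other marker lists, IL-1β raised 1 and lowered 6 of 8 beta cell genes. Among markers in the model it raised 2 of 5 duct, 1 of 5 endothelial and 1 of 3 acinar genes. It lowered 1 of 7 fibroblast and stellate genes. These lists are short, and 11.2% of all genes tested were raised and 6.59% lowered.

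**Figure D3:**
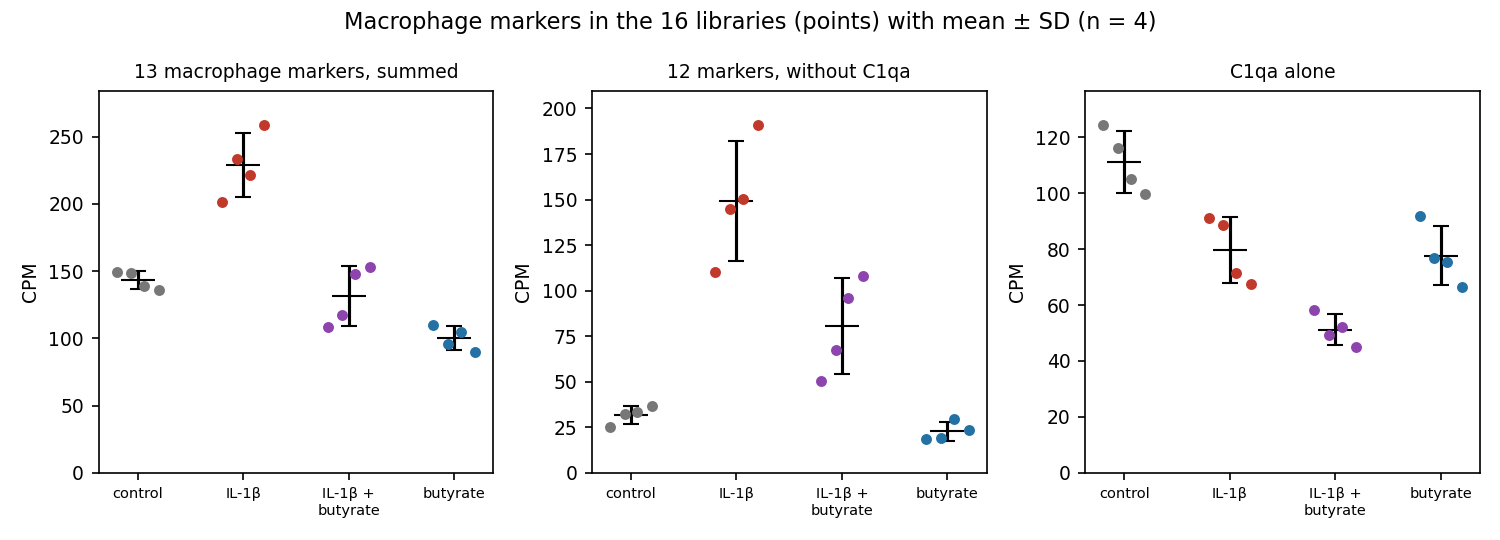
Summed CPM of 13 macrophage markers, of the 12 without C1qa, and of C1qa alone (vertical axes, linear from 0) in the 4 conditions. Points are libraries and bars the mean ± SD (n = 4). Without C1qa the IL-1β libraries lie at 110 to 191 CPM and the controls at 24.9 to 36.5 CPM, while C1qa alone is highest in control.

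Islets given both agents were set against islets given IL-1β alone. The question here was how butyrate moved these genes with IL-1β present, not whether it changed the response to IL-1β. Of the 10 genes, 3 were lowered (Casp1, Casp4, Gsdmd), where 11.1% of all genes tested were lowered. Pycard was the 1 gene raised, where 8.41% of all genes tested were raised. Aim2, Mlkl and Zbp1 were not called and 3 genes were not in the model.

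Casp1 stood at 0.934, 0.891, 0.657 and 0.915 CPM with both agents, below all 4 libraries of IL-1β alone (2.59 to 3.0). Its log2 fold change was -1.72 (SE 0.25, edgeR adjusted p = 8.17e-06). It was still above control, by 1.53 on the log2 scale (SE 0.36, edgeR adjusted p = 0.0011), and the 4 libraries lay above the 4 controls. Casp4 stood at 2.11, 3.01, 2.76 and 2.5 CPM against 3.63 to 5.74 with IL-1β alone, again without overlap, and fell by 0.91 on the log2 scale (SE 0.17, edgeR adjusted p = 0.000214). Against control Casp4 was 4.92-fold higher (log2 fold change 2.30, SE 0.24).

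Gsdmd moved least of the lowered genes. It had 10.2, 9.38, 9.90 and 10.5 CPM with both agents, all below the IL-1β range of 12.2 to 14.1 and all above the control range of 5.06 to 7.93. The fall was 0.40 on the log2 scale (SE 0.11, edgeR adjusted p = 0.00703), near the threshold, and it did not pass in 7 of 24 alternative fits, where the adjusted p reached 0.019 without IL-1β plus butyrate replicate 2. Mlkl was at 3.90, 4.24, 3.11 and 3.61 CPM, overlapping the IL-1β libraries by 1 library, with a log2 fold change of -0.27 (interval -0.55 to 0.02, edgeR adjusted p = 0.155).

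Pycard was the only gene called in the other direction. With both agents it was at 5.97, 7.0, 7.05 and 6.45 CPM, above the highest library of IL-1β alone at 4.26, and the log2 fold change was 0.89 (SE 0.13, edgeR adjusted p = 5.74e-06). Macrophage markers went the other way in this comparison. Of the 13, 7 were lowered and 0 raised in edgeR, with a median log2 fold change of -0.88 against 0.01 over all genes tested. All 13 summed to between 108 and 153 CPM with both agents, against 201 to 258 with IL-1β alone and 136 to 149 in control. The 12 without C1qa summed to between 50.2 and 108 CPM with both agents. The part of macrophages in the lower Casp1, Casp4 and Gsdmd was not tested.

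Butyrate alone against control gives the effect without added cytokine. Pycard was raised, 1 of the 10 genes, where 8.53% of all genes tested were raised. None of the 10 was lowered in edgeR, where 11.4% of all genes tested were lowered. At an unadjusted p under 0.05 edgeR had 2 raised and 1 lowered, where 17.6% of all genes tested were raised and 21% lowered, so these counts are near the share over all genes. DESeq2 called 1 raised and 0 lowered, against 8.15% and 11.5%. Pycard stood at 6.88, 5.11, 5.02 and 5.51 CPM, every library above every control, and rose by 0.78 on the log2 scale (SE 0.13, edgeR adjusted p = 4.97e-05) or 1.72-fold. Its 3 exons on chromosome 7 (chr7:127989708-127993867) share 485 bases with Gm45205 on the opposite strand, which had 3 to 17 counts per library where Pycard had 54 to 165. The library kit used does not mark strand, so reads from the shared bases cannot be assigned to either gene by their sequence.

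Casp1 with butyrate alone had 0, 3, 2 and 1 counts against 11, 2, 3 and 10 in control, 2 overlapping sets. The log2 fold change was -1.95 (SE 0.61), with an edgeR adjusted p of 0.0154 that missed the threshold. It passed in 4 of the 23 alternatives that gave it a value, 1 of them the same fit judged at an adjusted p under 0.05. The lowest edgeR adjusted p was 0.00346, without control replicate 2, and the highest was 0.080, without control replicate 1. The 13 macrophage markers summed to between 90.0 and 110 CPM with butyrate alone, against 136 to 149 in control, without overlap. The 12 without C1qa summed to between 18.4 and 29.5 CPM, against 24.9 to 36.5 in control. Of the 13, 1 (C1qa) was lowered, where 11.4% of all genes tested were. With the replicate block 5 of the 13 were lowered, where 2774 of 18587 genes tested were. The part of macrophages in the Casp1 value was not tested. The ratio of pooled counts was 0.244 with an exact 95% interval of 0.0822 to 0.606. Casp4, Gsdmd and Mlkl had log2 fold changes of -0.29 (interval -0.98 to 0.39), -0.02 (interval -0.29 to 0.25) and -0.14 (interval -0.51 to 0.23). The Gsdmd interval is narrow enough that a change as large as the one with IL-1β lies outside it.

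Zbp1 had 5, 18, 17 and 16 counts with butyrate alone, a log2 fold change of 0.87 (interval 0.07 to 1.67, edgeR adjusted p = 0.0979). With both agents it had 18, 24, 12 and 25 counts, and this was its one call, against control (log2 fold change 1.26, SE 0.37, edgeR adjusted p = 0.00739). That call was lost in 5 of 24 alternative fits, each of which left out 1 library. The highest adjusted p, 0.0365, was without IL-1β plus butyrate replicate 4. Over the 4 conditions its mean CPM was 0.362 ± 0.105 in control, 0.696 ± 0.257 with IL-1β, 0.870 ± 0.301 with both and 0.657 ± 0.283 with butyrate (SD, n = 4), and the 3 treated conditions overlapped.

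In the full comparison of both agents with control, 6 of the 10 genes were raised (Casp1, Casp4, Gsdmd, Mlkl, Pycard, Zbp1), where 15.8% of all genes tested were raised, and none was lowered, where 14.8% were. Over all genes an unadjusted p under 0.05 in edgeR gave 23.2% raised and 23.1% lowered, and of the 10 genes 7 were raised and 0 lowered. DESeq2 called 6 raised and 0 lowered, against 12.9% and 12.1%. Gsdmd was 1.69-fold and Mlkl 2.22-fold above control. Of the 13 macrophage markers 9 were raised and 1 lowered here, and their part was not tested. Pycard was 2.02-fold above control (log2 fold change 1.02, SE 0.13, edgeR adjusted p = 3.36e-07).

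In islets that all had butyrate, IL-1β raised Casp1, Casp4, Gsdmd and Mlkl, 4 of the 10, where 9.92% of all genes tested were raised, and none was lowered, where 4.86% were. With no adjustment, at a p under 0.05, edgeR had 5 raised and 0 lowered, against 17.9% and 13.3% of all genes tested. DESeq2 called 4 raised and 0 lowered, against 8.71% and 4.21%. The log2 fold changes were 3.48 (SE 0.49) for Casp1, 2.59 (SE 0.25) for Casp4, 0.78 (SE 0.12) for Gsdmd and 1.29 (SE 0.16) for Mlkl. Casp1 had 6 counts in all over the 4 butyrate libraries and 78 over the 4 with both agents, a ratio of pooled counts of 12.0 with an exact 95% interval of 5.28 to 33.7. Of the 13 macrophage markers 12 were raised and 1 lowered in this comparison, and their part was not tested. Aim2 was at 3, 0, 2 and 6 counts with butyrate and 5, 8, 13 and 9 with both, with an edgeR adjusted p of 0.0516. All of these comparisons share libraries with one another, so they are not separate evidence.

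Whether butyrate acted differently in the presence of IL-1β was tested as the difference of the 2 butyrate effects. It was called for none of the 10 genes by edgeR or by DESeq2, where 0.043% of all genes tested were higher and 0.0538% lower in edgeR and 0.1% and 0.151% in DESeq2. At an unadjusted p under 0.05, which 3.78% of all genes tested passed upward and 3.55% downward, edgeR had Gsdmd alone, with a difference of -0.38 on the log2 scale (interval -0.73 to -0.03, adjusted p = 0.624). For Casp4, lowered by butyrate with IL-1β and not called without, the difference was -0.61 (interval -1.41 to 0.18). For Casp1 it was 0.23 (interval -0.91 to 1.37) and for Pycard 0.11 (interval -0.27 to 0.49). The call of a Casp4 or Gsdmd effect in one setting and not in the other is therefore not shown to be a difference between the settings.

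The 3 genes outside the model differed among themselves. Nlrp3, the best known inflammasome sensor, had 3, 3, 2 and 4 counts in control, 11, 10, 8 and 21 with IL-1β, 7, 10, 9 and 5 with both agents and 1, 1, 2 and 7 with butyrate. IL-1β and control did not overlap, at 0.557 ± 0.148 against 0.133 ± 0.0315 CPM (SD, n = 4), nor did both agents (0.336 ± 0.0875 CPM) and control. The exact two-sided permutation p over 8 libraries was 0.0286 in both cases, the smallest that 4 against 4 can give, and 0.107 after adjustment over 15 such tests. The ratio of pooled counts of IL-1β to control was 4.30 (exact 95% interval 2.26 to 8.88). With no filter on low counts, edgeR gave Nlrp3 a log2 fold change of 2.06 (adjusted p = 0.000393), and DESeq2 gave 2.09 (adjusted p = 0.00265). Both agents against IL-1β alone had an exact permutation p of 0.0571 (adjusted 0.143).

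Ripk3, the kinase upstream of MLKL, had 0, 2, 2 and 0 counts in control, 3, 1, 1 and 5 with IL-1β, 4, 8, 5 and 7 with both agents and 2, 1, 0 and 1 with butyrate. Both agents lay above control and above butyrate without overlap (exact two-sided permutation p = 0.0286 for each, 0.107 adjusted over 15 tests). Both agents and IL-1β alone overlapped, with 24 against 10 pooled counts. That ratio was 2.27 (exact 95% interval 1.05 to 5.32), with an exact permutation p of 0.0571 (adjusted 0.143). Pooled counts of 24 against 4 gave a ratio of 5.86 to control, with an exact 95% interval of 2.01 to 23.3. With no filter, edgeR's adjusted p was 0.0072 for this comparison, and DESeq2 gave none at so low a count. In the same libraries Mlkl was at 3.11 to 4.24 CPM and Ripk3 at 0.162 to 0.340 CPM.

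Casp12, a caspase linked to stress of the endoplasmic reticulum, had 62 counts over the 16 libraries. Its mean was 0.180 ± 0.0694 CPM in control, 0.158 ± 0.0798 with IL-1β, 0.154 ± 0.0828 with both and 0.202 ± 0.154 with butyrate. All 4 conditions overlapped, and the lowest of its 5 exact permutation p-values was 0.571 before adjustment. The ratio of pooled counts of IL-1β to control was 0.903 with an exact 95% interval of 0.408 to 1.98. Changes of the size seen for the adjoining Casp1 and Casp4 lie outside that interval, which covers counting error only and no spread between libraries.

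Partner genes of the same pathways were listed from general knowledge by role, 71 genes in 7 roles, of which 63 were in the model. With IL-1β 27 were raised and 0 lowered, where 11.2% of all genes tested were raised and 6.59% lowered, and the median log2 fold change was 0.20 against -0.03 over all genes tested. At an unadjusted p under 0.05 edgeR had 34 raised and 1 lowered (18.7% and 17.2% over all genes), and DESeq2 called 26 raised and 0 lowered (10.7% and 5.29%). Without scaling beyond library size, 33 were raised and 0 lowered. Adding butyrate to IL-1β lowered 13 and raised 3 of the 63 (median -0.13 against 0.01), where 11.1% of all genes tested were lowered and 8.41% raised. Butyrate alone lowered 12 and raised 3 (median -0.12 against 0.01), where 11.4% were lowered and 8.53% raised.

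The sensors and upstream factors came first in order of the pathway. Of the 10 other sensors 4 were in the model and 2 were raised by IL-1β, Naip2, a sensor of bacterial secretion-system proteins, by 0.52 on the log2 scale (SE 0.05, edgeR adjusted p = 2.64e-09) and Naip5 at lower level. Naip genes are close copies, so reads could be split between them. Of 9 tested genes for NLRP3 activation and channels, 5 were raised. Gbp3, an interferon-inducible GTPase of a family of near copies, went from 0.762 ± 0.199 to 4.40 ± 0.50 CPM (log2 fold change 2.53, SE 0.19), and Panx1, a membrane channel, rose by 0.70 (SE 0.16). Butyrate with IL-1β lowered 5 of the 9, Gbp3 by 0.87 on the log2 scale (SE 0.16) and the deubiquitinase gene Brcc3, where the log2 fold change was -0.31 (SE 0.05).

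Among 8 tested genes for substrates and membrane rupture, 4 were raised by IL-1β. Il1b, the cytokine that caspase-1 matures, went from 2.31 ± 0.501 to 4.75 ± 1.08 CPM (log2 fold change 1.02, SE 0.18, edgeR adjusted p = 7.83e-05). The transcript of Il1b was lowest with butyrate alone at 0.720 ± 0.143 CPM (log2 fold change -1.68 against control, SE 0.24), and it stood at 1.78 ± 0.384 CPM with both agents (log2 fold change -1.41 against IL-1β, SE 0.19).

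Of 9 receptor and adaptor genes for necroptosis, 6 were raised by IL-1β, with Tnfrsf1a, the TNF receptor, up by 0.89 (SE 0.07) and Ifih1, a sensor of double-stranded RNA, up by 0.84 (SE 0.07). Ticam1, the adaptor that joins TLR3 to RIPK3, was raised by butyrate alone by 0.61 (SE 0.06, edgeR adjusted p = 1.05e-08) and by butyrate with IL-1β by 0.44 (SE 0.06), while Ifih1 had log2 fold changes of -0.45 and -0.51. Of the 14 genes of the checkpoint that holds necroptosis back or licenses it, 3 were raised by IL-1β, where 11.2% of all genes tested were. Birc3, a ubiquitin ligase that acts on RIPK1, rose from 9.59 ± 1.69 to 54.7 ± 1.16 CPM (log2 fold change 2.52, SE 0.08) and rose further with butyrate, to 71.2 ± 5.98 CPM (0.38 above IL-1β alone, SE 0.07). With butyrate alone Birc3 was not called (log2 fold change 0.19, edgeR adjusted p = 0.146). Of the same 14 genes butyrate with IL-1β lowered 2, Cflar and Rbck1, near the 11.1% lowered over all genes tested. Butyrate alone lowered 4, Cflar, Rbck1, Birc2 and Xiap, where 11.4% of all genes tested were lowered. Their log2 fold changes with butyrate alone ran from -0.27 (Birc2) to -0.19 (Xiap). Tnfaip3, the deubiquitinase A20, rose by 1.88 with IL-1β (SE 0.10).

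The 10 genes of ESCRT-III and its partners, which repair membranes after gasdermin or MLKL damage, gave 0 calls with IL-1β in edgeR and DESeq2. Over all genes edgeR called 11.2% raised and 6.59% lowered, and DESeq2 10.7% and 5.29% of those it gave an adjusted p. At an unadjusted p under 0.05 edgeR had 2 raised and 0 lowered, where 18.7% of all genes tested were raised and 17.2% lowered. Of 9 upstream transcription factor genes, 7 were raised by IL-1β, Irf8 by 1.00 (SE 0.20) and Irf7 by 0.83 (SE 0.17). Irf7, which drives interferon genes, had a log2 fold change of -0.93 (SE 0.17) when butyrate was added to IL-1β and -1.06 (SE 0.20) with butyrate alone. Irf8 is also expressed in macrophages.

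**Figure D4:**
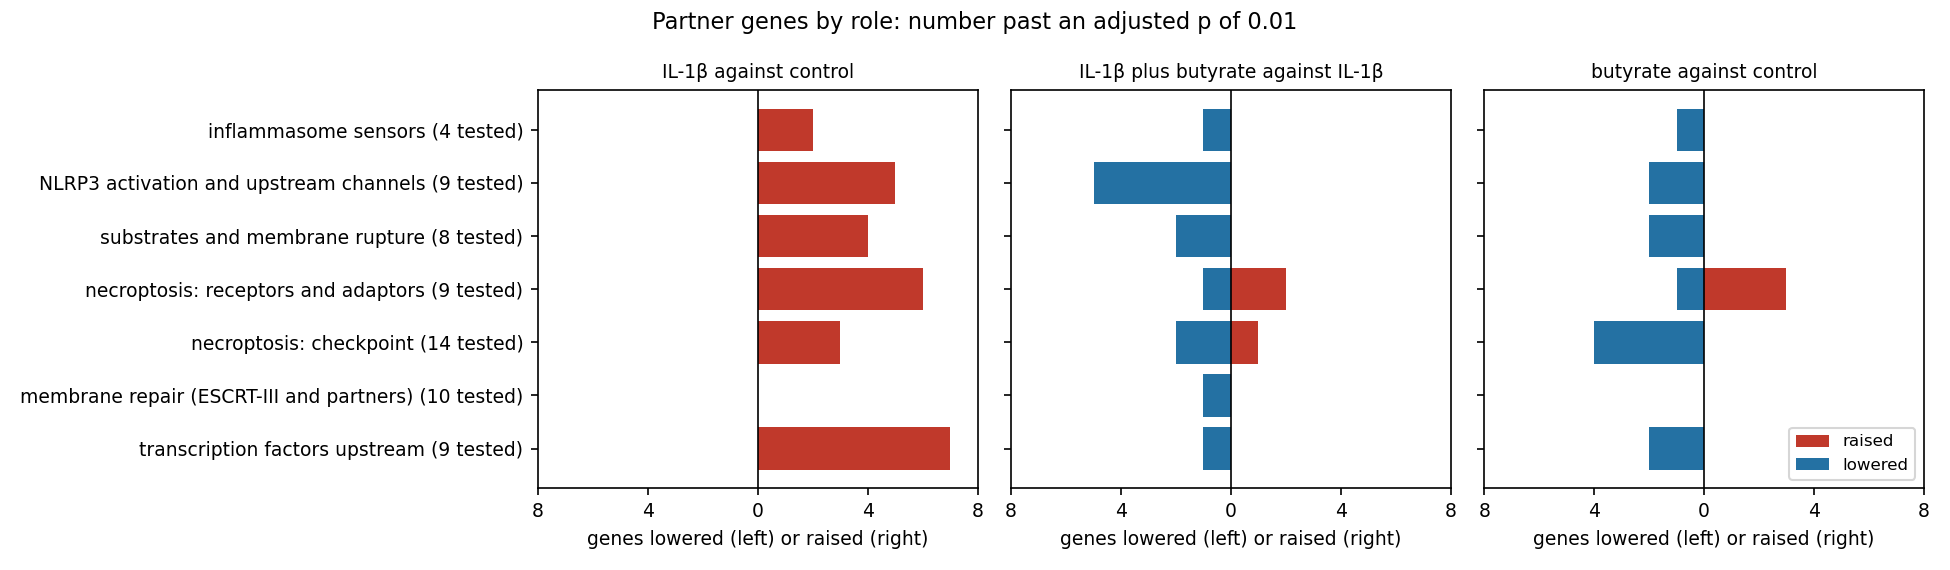
Number of partner genes raised (red, to the right) or lowered (blue, to the left) at an adjusted p under 0.01 in 3 comparisons, by role, with the number tested in brackets. With IL-1β 27 of 63 are raised and 0 lowered, and with butyrate added or alone most calls are to the left.

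The genes whose level across the 16 libraries was most like that of a given gene were found by Pearson's r of log2 CPM over 12692 genes with an average log2 CPM of at least 1. The 16 libraries share the 4 conditions, so a high r reflects a like order of the conditions and is given as a description. For Casp4 they were Junb (r = 0.98), Relb (0.98) and Itm2b (0.97). For Mlkl they were Hs3st1 (0.98), Junb (0.98) and Cd82 (0.98). Genes near Pycard included Ppm1m (0.96) and Cyb5r1 (0.95), and Gsdmd was nearest to ENSMUSG00000095742, for which no symbol was matched (0.97), Disp2 (0.97) and Dock6 (0.97). Casp1, Zbp1 and Aim2 were below the level needed.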

How the data were processed

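RNA of 16 islet libraries (4 conditions, 4 each) was sequenced as single-end reads from a non-directional kit. The submitters' processing notes list bcl2fastq 2.19.1, STAR 2.5.3a, FastQC 0.11.7 and MultiQC 1.7. The authors mapped to GRCm38 (mm10), and the deposited values are raw counts per gene without normalization. The name of the deposited table credits the counts to STAR, and the strand setting and annotation release are not given in the sources used here. The table has 52636 genes, 10560 without a count, and 0 columns of other samples. GENCODE M21 and the symbol table gave symbols for 52403 identifiers.

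In R 4.3.3, edgeR 4.0.16 (filterByExpr, TMM, robust quasi-likelihood) fitted 1 model of the 4 conditions to all 16 libraries, with Benjamini-Hochberg adjustment over 18587 genes and calls at an adjusted p under 0.01, the study's threshold. DESeq2 1.42.0 was an alternative. The code was tested on simulated data. CPM used the TMM-scaled totals of the libraries. FPKM divided CPM by the length of all annotated exons of a gene together, which can exceed the length of its main transcript. Genes outside the model were compared by exact two-sided permutation of mean CPM. Exact intervals of pooled count ratios cover counting error only, and the reads carried no molecular identifiers. The 10 genes and all lists were chosen with earlier results of these data known. Partner genes named are the 2 per role with the largest change among those called whose average log2 CPM reached 1, and Naip5 and the checkpoint genes lowered by butyrate were named outside that rule, after their values were seen. Some genes that the naming rules select are not reported here. The alternatives were 3 other normalizations, DESeq2, no filter, an adjusted p under 0.05, only the groups compared, the replicate block and each library left out in turn.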

Additional observations from a re-analysis of the deposited data

Results flagged for a closer look

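Among the 10 genes, 40 sets of 4 libraries were looked at for a library whose gap to the nearest of the others exceeded Dixon's 95% critical value, as a share of the set's range, which chance gives in about 1 in 20 sets. This held for 2 sets. Gsdmd in control replicate 1 had 7.93 CPM (170 counts) where the other 3 controls had 5.06 to 5.38 CPM. Casp1 in IL-1β plus butyrate replicate 3 had 0.657 CPM (15 counts) where the other 3 had 0.891 to 0.934 CPM. The difference of the 2 butyrate effects was called for none of the 10 genes.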

How the results depend on the processing

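Of 19 calls of a gene in a comparison, 17 were made in every alternative that gave a value, and no called gene changed sign. The exceptions were Gsdmd for both agents against IL-1β, also lost with upper-quartile normalization (edgeR adjusted p = 0.0144) and with library size as the only scaling (0.0109), and Zbp1 for both agents against control, lost in 5 fits that left out 1 library each. Casp1 with butyrate alone became a second call there, so that 2 of the 10 genes were called in place of 1, with no filter on low counts, with an adjusted p under 0.05, without control replicate 2 and without control replicate 3. With no filter, Nlrp3 joined the calls of IL-1β against control (5) and Ripk3 those of both agents against control (7). With 1 library left out at a time, 4 to 5 genes were called for IL-1β against control, 3 to 4 for both agents against IL-1β, 1 to 2 for butyrate against control, 5 to 6 for both against control, 4 to 5 for both against butyrate and 0 for the difference of the butyrate effects. Nlrp3 entered 13 of these 16 fits and was called for IL-1β against control in all 13 (edgeR adjusted p 0.000373 to 0.00468). It passed the filter there only through IL-1β libraries, where its level was highest, so these calls are not separate support for a rise. The tests of the 3 genes outside the model gave 4 values at the smallest p on CPM and 4 on counts. The main model and the permutation tests did not pair libraries by replicate number, and the permutation tests had no paired alternative. Correlation of deviations was over 0.1 in 17 of 24 same-numbered pairs (lowest 0.053), short of the criterion used for pairing. Same-numbered libraries were still more alike, with a median correlation of 0.118 against -0.040 over the 72 differently numbered pairs. Of the 16 libraries, 14 correlated best with their own number. With the replicate block, 4, 4, 1, 6, 4 and 0 of the 10 genes were called in the 6 comparisons, as without it, and over all genes IL-1β against control went from 2087 raised and 1224 lowered to 2586 and 1951. Scaling moved the split over all genes. With library size only it was 2798 raised and 708 lowered for IL-1β against control, 3805 and 1884 for both against control (2937 and 2751 with TMM) and 3153 and 451 for both against butyrate (1844 and 903). With upper-quartile normalization it was 1914 and 1800 for IL-1β against control, 2137 and 1566 for both against IL-1β (1563 and 2066), 2207 and 1566 for butyrate against control (1585 and 2112) and 1612 and 1420 for both against butyrate. The cause was not tested. The macrophage sum without C1qa, chosen after seeing the data, averaged 31.7, 149, 80.4 and 22.7 CPM in control, IL-1β, both agents and butyrate. With all 13 markers the averages, in the same order, were 143, 229, 132 and 100 CPM. Counts of 0 to 21 per library limit Nlrp3, Aim2, Ripk3 and Casp12.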
